A study of Mus musculus with 9 samples.

Results

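The genes described here are 33 named targets and regulators of p53 other than Cdkn1a, and all 33 had a line in the table of 19517 genes. They were chosen by name, with earlier results of these data known. By role, 4 genes were sorted into feedback (p53 itself, its inhibitors and cyclin G1), 11 into apoptosis and 7 into metabolism and growth signalling. Another 5 were sorted into DNA repair and nucleotide supply, and 6 into cell cycle or growth arrest. RNA-seq was run on ovaries of female BALB/c nude mice, which are athymic and so lack mature T cells. All mice, untreated ones included, bore xenografts of the human breast cancer line MDA-MB-231. There were 3 libraries in each of 3 groups, which were CAU (caulerpin, an alkaloid of green algae), CTX (cyclophosphamide, a DNA-alkylating drug used in chemotherapy) and UT (no treatment). For CAU the labels mention only caulerpin, which leaves unsaid if those mice had cyclophosphamide too, and no label gives a dose, a time or an age.

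The protein p53 is a transcription factor that DNA damage stabilises. It binds response elements near its target genes, whose products halt the cell cycle, aid repair, restrain growth signalling or start apoptosis, while Mdm2, itself a target, marks p53 for degradation and so closes a feedback loop. In the ovary, alkylating drugs damage granulosa cells and oocytes, and in oocytes the related protein p63 can act on some of the same genes.

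Values were taken from the authors' deposited table, where each gene has its DESeq2 log2 fold change with p-value and adjusted p for CTX against UT, CAU against CTX and CAU against UT. Values per library were not analysed here and sequencing depth is unknown, so no member could be checked sample by sample. Beside each log2 fold change stands an SE, the standard error implied by that gene's p-value. The header does not say which group is the numerator, so a column naming 2 groups was taken as the later-named over the earlier-named. Read the other way, all signs would turn, and the p53 targets were not used to choose. The table holds no expression levels, so the tissue label could not be checked. All 12 oocyte markers and all 14 granulosa markers looked for had values, but so did nearly all genes. In bulk tissue, fewer cells of a type and less RNA per cell cannot be told apart. Separate mice are not named in the labels, so p-values reflect the spread among these libraries, some of which may be technical.

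Because p53 acts through a DNA element, the promoters of the members are shown first. RefSeq promoter windows of build GRCm38.p6, from 250 bases before to 50 bases after a transcript start, were found for 25 of the 33 members. The p53 half-site consensus, 10 bases long and its own reverse complement, occurred with no mismatch in 10 of these 25 genes (40.0%), against 8.62% of the 15389 genes of the table with a window. Since published target lists rest in part on such elements, this share describes the list and is not independent of it. Pairs of half-sites with at most 1 mismatch in each and at most 13 bases between them occurred in 4 of the 25 (Ccng1, Bax, Polk and Gtse1), against 7.15% of genes. A match is a description of letters and not a measured binding site.

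Of the members called changed in any comparison, Ccng1 and Gtse1 had at least 1 such pair in their window. The Gtse1 window held 3 such pairs and the Ccng1 window 1. Both windows are given whole, with 1 pair in capitals (in Gtse1 the one with the fewest mismatches and then the shortest gap), beside that of Eda2r, the member with the largest fold change among those called, whose window held no half-site. The capitals in Eda2r mark a CCAAT box.
Ccng1 chr11:40755237-40755536 (minus strand): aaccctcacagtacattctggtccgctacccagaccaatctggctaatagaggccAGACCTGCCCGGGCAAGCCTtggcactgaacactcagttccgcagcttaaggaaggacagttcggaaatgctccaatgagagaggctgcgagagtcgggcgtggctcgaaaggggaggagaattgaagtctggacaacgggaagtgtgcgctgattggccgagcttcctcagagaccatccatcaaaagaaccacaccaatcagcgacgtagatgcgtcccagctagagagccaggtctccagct
Gtse1 chr15:85859696-85859995 (plus strand): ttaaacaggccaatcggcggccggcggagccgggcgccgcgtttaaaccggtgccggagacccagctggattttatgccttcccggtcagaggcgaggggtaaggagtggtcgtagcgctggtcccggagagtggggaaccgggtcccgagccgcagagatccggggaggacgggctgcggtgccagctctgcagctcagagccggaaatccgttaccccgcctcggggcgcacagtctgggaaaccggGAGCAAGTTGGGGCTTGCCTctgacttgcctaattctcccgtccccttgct
Eda2r chrX:97377160-97377459 (minus strand): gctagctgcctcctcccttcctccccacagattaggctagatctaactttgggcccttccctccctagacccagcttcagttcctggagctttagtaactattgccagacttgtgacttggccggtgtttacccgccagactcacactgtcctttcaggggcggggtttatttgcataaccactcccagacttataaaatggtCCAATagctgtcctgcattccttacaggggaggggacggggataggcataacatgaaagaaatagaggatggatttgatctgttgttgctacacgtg

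In Ccng1 the exact half-site began at position -185, counting the transcript start as 0, and directly followed its partner, and in Gtse1 it began at position 9. Gtse1 has another RefSeq window, upstream, that held no half-site. Half-sites also stood in the windows of 8 members that were called in no comparison, among them Trp53 and Mdm2. These are given with 15 bases on either side, half-sites in capitals. In Bax and Polk the capitals also cover the second half-site, 1 base away. Sesn1 and Polk, like Gtse1, each have another window, upstream, that held no half-site.
Trp53 chr11:69580269-69580308 (plus strand): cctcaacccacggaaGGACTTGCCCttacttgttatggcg
Mdm2 chr10:117710920-117710959 (minus strand): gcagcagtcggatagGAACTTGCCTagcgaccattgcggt
Bax chr7:45467075-45467125 (minus strand): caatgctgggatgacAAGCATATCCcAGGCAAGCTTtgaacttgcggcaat
Aen chr7:78895922-78895961 (plus strand): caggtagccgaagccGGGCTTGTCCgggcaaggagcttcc
Ei24 chr9:36797320-36797359 (minus strand): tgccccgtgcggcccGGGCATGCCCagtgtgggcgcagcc
Sesn1 chr10:41887251-41887290 (plus strand): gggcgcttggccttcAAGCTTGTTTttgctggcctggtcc
Ddit4l chr3:137623567-137623606 (plus strand): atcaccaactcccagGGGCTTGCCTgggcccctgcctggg
Polk chr13:96519383-96519433 (minus strand): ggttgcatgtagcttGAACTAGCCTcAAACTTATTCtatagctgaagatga

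The CCAAT box, CCAAT on either strand, stood in 15 of the 25 windows (60.0%, against 42.4% of genes), including those of the called members Ccng1, Eda2r, Sesn2, Gtse1 and Psrc1. The CHR element of cell cycle promoters, TTTGAA or TTTAAA on either strand, stood in 11 (44.0%, against 25.3% of genes), of which Gtse1 was the called one. Zmat3 and Tnfrsf10b had no window.

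The comparison of CTX with UT asked which genes differed in ovaries of mice given cyclophosphamide. A subset of p53 targets was higher. At an adjusted p under 0.05, 7 of the 33 members rose and none fell (21.2%), while 1.29% of all 19260 genes tested were called, 0.472% higher and 0.82% lower. At an unadjusted p under 0.05, 13 members were higher and 1 lower, where 10.2% of all genes passed, 4.42% higher and 5.79% lower. The 7 were spread over 4 of the 5 roles, with 2 receptors (Eda2r, Tnfrsf10b), 2 spindle and microtubule proteins (Gtse1, Psrc1), Zmat3, Ccng1 and Sesn2. The median log2 fold change was 0.29 over the members and -0.03 over all genes, and 24 of 33 members (72.7%) were positive against 44.2% of all genes. Since the members were chosen with earlier results of these data known, such contrasts with all genes describe the list and test nothing.

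Eda2r, the receptor for the ectodysplasin form EDA-A2 and an inducer of cell death, was 3.21-fold higher in CTX. Its log2 fold change was 1.68 (SE 0.21, adjusted p = 3.8e-12) per the authors' deposited table, and its p-value was the lowest but one (rank 2) of 19260 genes. The gene lies at chrX:97333837-97377234 on the minus strand of GRCm38.p6. Tnfrsf10b, the mouse receptor for the death ligand TRAIL (chr14:69767472-69784411, plus strand), rose 1.36-fold, at 0.44 (SE 0.12, adjusted p = 0.0316) per the authors' deposited table. It was the called member nearest the threshold, and Apaf1, the scaffold of the apoptosome, lay just outside it at 0.38 (SE 0.12, adjusted p = 0.0682) per the authors' deposited table.

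The other apoptosis genes did not pass the test. The BH3-only genes Bbc3 (PUMA) and Pmaip1 (NOXA), whose products release Bax-type pore formers from their inhibitors, had larger but less precise values than Tnfrsf10b. Per the authors' deposited table the values were 0.87 (SE 0.29, adjusted p = 0.119) for Bbc3 and 1.03 (SE 0.67, adjusted p = 0.694) for Pmaip1. The mitochondrial pore former Bax itself was at 0.30 (SE 0.14), Trp53inp1, a stress protein that promotes p53 activity, at 0.34 (SE 0.15) and the nuclease gene Aen at 0.29 (SE 0.15) per the authors' deposited table. The endoplasmic reticulum protein gene Ei24 was at 0.09 (SE 0.08), the desmosome protein gene Perp at -0.11 (SE 0.15) and the death receptor gene Fas at -0.18 (SE 0.35) per the authors' deposited table. So 2 of 11 apoptosis genes were called, 9 were positive, and their median was 0.34.

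Feedback genes were split. Ccng1, cyclin G1, which acts with a phosphatase on Mdm2 (chr11:40748552-40755309, minus strand), rose 1.64-fold, at 0.72 (SE 0.16, adjusted p = 0.00255) per the authors' deposited table. Mdm2, the ubiquitin ligase of p53, was at 0.11 (SE 0.09, adjusted p = 0.818) per the authors' deposited table, with a 95% interval from -0.06 to 0.28 on the log2 scale. Trp53 was at 0.12 (SE 0.14, adjusted p = 0.959, 95% interval -0.16 to 0.40) and Mdm4, the Mdm2 relative that masks the p53 activation domain, at -0.01 (SE 0.07, adjusted p = 0.994) per the authors' deposited table. Trp53 and Mdm4 each have an annotated pseudogene, so their values are uncertain where reads could be split. The interval of Ccng1 ran from 0.40 to 1.03 and did not overlap that of Mdm2. The difference between these genes was not tested.

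Among the metabolism genes, Sesn2, a sestrin that restrains the growth kinase complex mTORC1 (chr4:132492804-132510456, minus strand), rose 1.57-fold, at 0.65 (SE 0.17, adjusted p = 0.0146) per the authors' deposited table. Its paralog Sesn1 was at 0.00 (SE 0.09, adjusted p = 0.999) per the authors' deposited table, with a 95% interval from -0.17 to 0.17. The remaining 5 did not pass. Gdf15, a secreted stress cytokine, was at 0.83 (SE 0.71), Ephx1, the microsomal epoxide hydrolase, at 0.35 (SE 0.24) and Phlda3, an inhibitor of the kinase AKT, at 0.31 (SE 0.16) per the authors' deposited table. Ddit4l, an mTOR inhibitor, was at 0.11 (SE 0.17) and Dcxr, a carbonyl and xylulose reductase, at -0.47 (SE 0.55) per the authors' deposited table.

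None of the 5 repair genes passed, and their median, 0.06, was the lowest of the 5 roles. Polk, a polymerase that copies past damaged bases, was at 0.32 (SE 0.13, adjusted p = 0.26) per the authors' deposited table. The nucleotide excision repair genes Ercc5, Xpc and Ddb2 were at 0.10 (SE 0.12), -0.11 (SE 0.14) and -0.06 (SE 0.12), and Rrm2b, a ribonucleotide reductase subunit, was at 0.06 (SE 0.18) per the authors' deposited table. The 95% intervals of these 4 genes lay between -0.5 and 0.5. The induction of Ddb2 by p53 is known from human cells, and its exons share bases with Acp2 on the other strand, whose reads cannot be told apart here because no source states the strand setting. The same holds for Plk3 with Tctex1d4, Rrm2b with Gm49085 and Ei24 with Gm26787. Bax and Ephx1 share exon bases with Gm45808 and Gm36961 on the same strand. None of the 7 called members shares exon bases with another gene.

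The cell cycle genes held 3 of the 7 called members. Zmat3, an RNA-binding zinc finger protein (chr3:32334792-32365665, minus strand), rose 1.65-fold, at 0.72 (SE 0.13, adjusted p = 3.01e-05) per the authors' deposited table. Gtse1, a microtubule-bound protein that moves p53 out of the nucleus (chr15:85859691-85876573, plus strand), rose 1.68-fold, at 0.74 (SE 0.16, adjusted p = 0.000737) per the authors' deposited table. Psrc1, a spindle microtubule protein (chr3:108383804-108388231, plus strand), also rose 1.68-fold, at 0.75 (SE 0.18, adjusted p = 0.00716) per the authors' deposited table. The polo-like kinase genes Plk2 and Plk3 were at -0.08 (SE 0.14) and -0.50 (SE 0.21), and the antiproliferative gene Btg2 was at 0.03 (SE 0.13) per the authors' deposited table, none of them past the test. Plk3 was the member with the lowest value, and its adjusted p was 0.299 per the authors' deposited table.

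**Figure D1:**
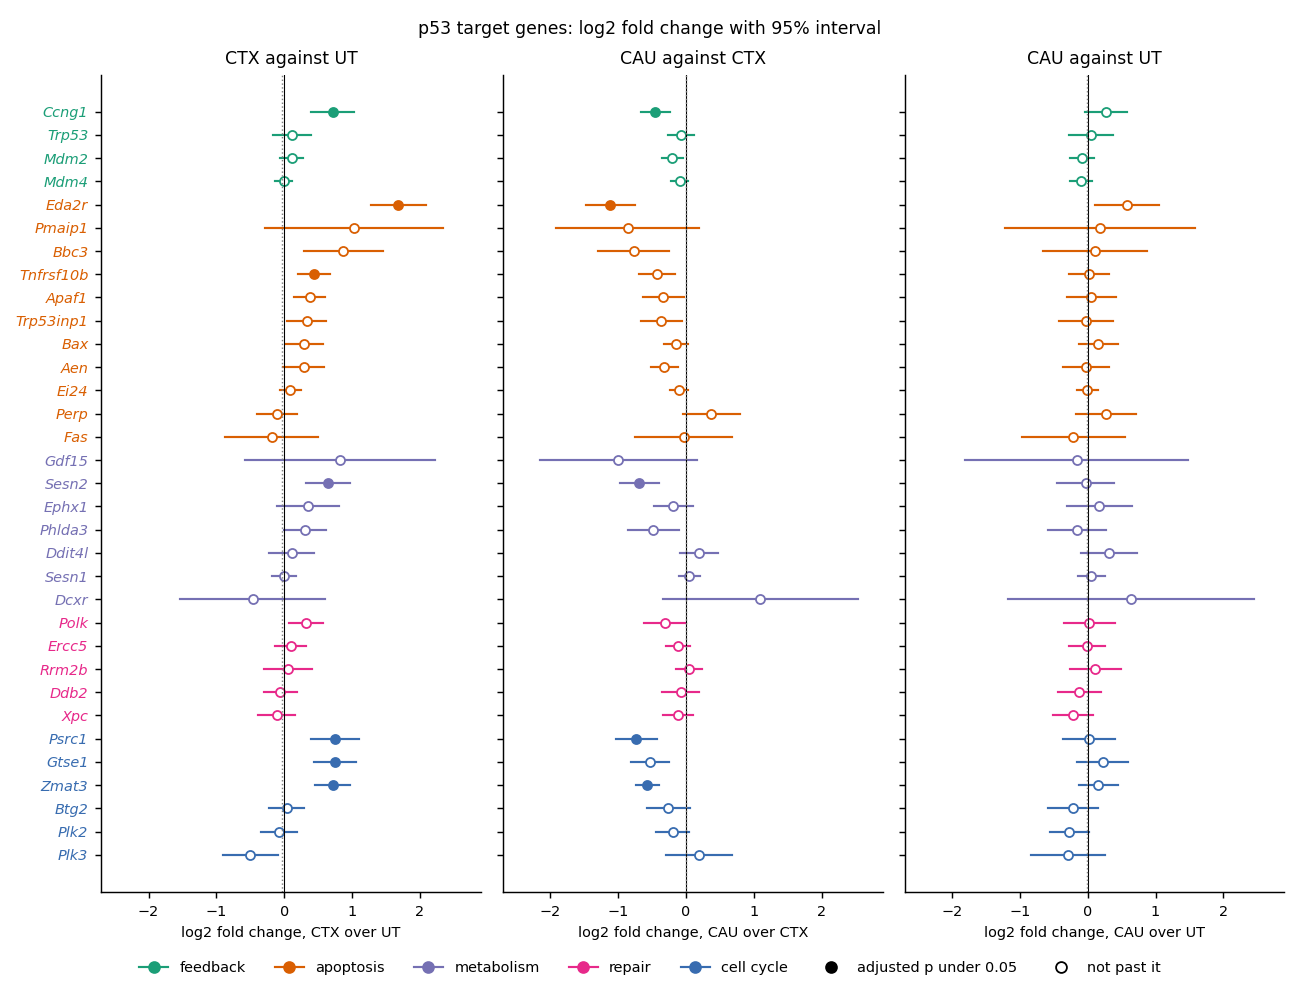
Log2 fold change (x axis) of each of the 33 p53 targets (rows, grouped and coloured by role) in 3 comparisons, with 95% intervals from the implied SE; filled points have an adjusted p under 0.05 and the dotted line is the median of all genes. In CTX against UT the 7 filled points are all right of 0, in CAU against CTX the 5 filled points are all left of 0, and in CAU against UT no point is filled.

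Markers of other cells moved in the same comparison, in which 0.472% of all genes were called higher, 0.82% lower, and 44.2% were positive. Of 14 markers of dividing cells, 4 rose and all 14 were positive, from 0.19 to 0.62 with a median of 0.43. Gtse1 is itself expressed mainly in dividing cells, and Psrc1, also called, encodes a spindle microtubule protein. Of 14 granulosa markers, 4 rose and 13 were positive (median 0.43). Of 14 macrophage markers, 6 fell and all 14 were negative (median -0.92, range -1.42 to -0.13). Of 11 T and NK cell markers, 3 fell and all 11 were negative (median -2.27, range -4.96 to -1.39). The T and NK cell values were imprecise, with a median SE of 1.12, against 0.24 for the macrophage markers. None of the 12 oocyte markers (median 0.10, range -0.81 to 0.34) and none of the 9 theca and stroma markers (median 0.31, range -0.83 to 0.55) passed. The part of these shifts in the p53 target values was not tested.

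The comparison of CAU with CTX asked how ovaries of the caulerpin group differed from those of the cyclophosphamide group. A subset of p53 targets was lower in CAU. In all, 5 of 33 members fell and none rose (15.2%), while 0.442% of the 19245 genes tested were called, 0.312% higher and 0.13% lower. At an unadjusted p under 0.05, 13 members were lower and none higher, where 5.36% of all genes passed, 3.32% higher and 2.04% lower. The median was -0.20 over the members and 0.00 over all genes, and 27 of 33 members were negative, with 18.2% positive against 52.3% of all genes. This comparison shares the CTX libraries with the one above, so the values of the 2 comparisons are not independent. The limit from the choice of members holds here too.

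Zmat3 fell to 67.5% of the CTX level, at -0.57 (SE 0.09, adjusted p = 9.04e-07) per the authors' deposited table, and ranked 2 by p-value among all genes tested. Eda2r fell to 46.2%, at -1.11 (SE 0.18, adjusted p = 4.84e-06) per the authors' deposited table. Psrc1 fell to 60.2% and Sesn2 to 62.1%, at -0.73 (SE 0.15, adjusted p = 0.00165) and -0.69 (SE 0.15, adjusted p = 0.00238) per the authors' deposited table. Ccng1 fell to 73.1%, at -0.45 (SE 0.11, adjusted p = 0.0157) per the authors' deposited table, and was the called member nearest the threshold. Gtse1, at -0.53 (SE 0.15, adjusted p = 0.06), and Tnfrsf10b, at -0.43 (SE 0.13, adjusted p = 0.163), did not pass per the authors' deposited table.

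By role, 1 of 4 feedback genes fell, 1 of 11 apoptosis genes, 1 of 7 metabolism genes, none of 5 repair genes and 2 of 6 cell cycle genes. All 4 feedback genes and 10 of 11 apoptosis genes were negative. Mdm2 was at -0.20 (SE 0.08, adjusted p = 0.511) and Trp53 at -0.07 (SE 0.10, adjusted p = 1) per the authors' deposited table. Bbc3 was at -0.77 (SE 0.27, adjusted p = 0.329), Aen at -0.32 (SE 0.10, adjusted p = 0.181) and Phlda3 at -0.48 (SE 0.19, adjusted p = 0.549) per the authors' deposited table, none of which passed.

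The role medians were -0.15 for feedback, -0.33 for apoptosis, -0.19 for metabolism, -0.11 for repair and -0.40 for cell cycle. Positive values were those of Perp at 0.38 (SE 0.22), Plk3 at 0.20 (SE 0.25), Ddit4l at 0.20 (SE 0.14), Dcxr at 1.10 (SE 0.74), Rrm2b at 0.05 (SE 0.10) and Sesn1 at 0.05 (SE 0.08) per the authors' deposited table, none past the test. The dividing cell markers were again alike, with all 14 negative (median -0.27, range -0.37 to -0.16) and none past the test. Over all genes in this comparison, 0.312% were called higher, 0.13% lower, and 52.3% were positive. None of the 12 oocyte markers passed, and all were negative (median -0.13). Of the granulosa markers 1 fell (Inhbb), and 10 of 14 were negative (median -0.16). Of the macrophage markers 2 rose (median 0.38), and of the T and NK cell markers 3 rose (median 2.18, with a median SE of 1.08). Their part in the p53 target values was not tested.

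**Figure D2:**
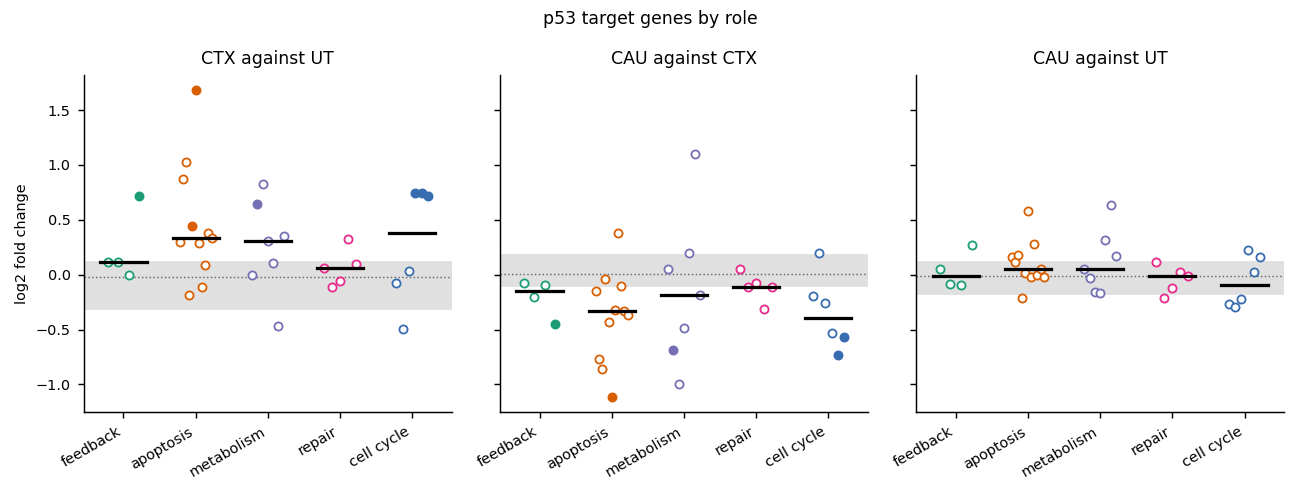
Log2 fold change (y axis) of the p53 targets by role in each comparison; points are genes (filled where the adjusted p is under 0.05), black bars are role medians, the grey band spans the middle 50% of all genes and the dotted line is their median. Repair genes sit nearest to 0 in CTX against UT (median 0.06), while apoptosis and cell cycle genes have medians of 0.34 and 0.38.

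Part of the members that were not called had narrow 95% intervals near 0, under the assumption behind the SE. In CTX against UT, 26 members were not called, and 13 of them had a 95% interval wholly between -0.5 and 0.5 on the log2 scale. These were Trp53, Mdm2, Mdm4, Perp, Ei24, Sesn1, Ddit4l, Rrm2b, Xpc, Ddb2, Ercc5, Plk2 and Btg2. Pmaip1, Gdf15 and Dcxr had an SE above 0.5, so a change of the size of that of Eda2r would not have passed the test in them. The highest p-value called in CTX against UT, 0.000612, corresponds to a log2 change of 0.51 at the median SE of the members, 0.15. It corresponds to 2.44 at their highest SE, that of Gdf15.

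**Figure D3:**
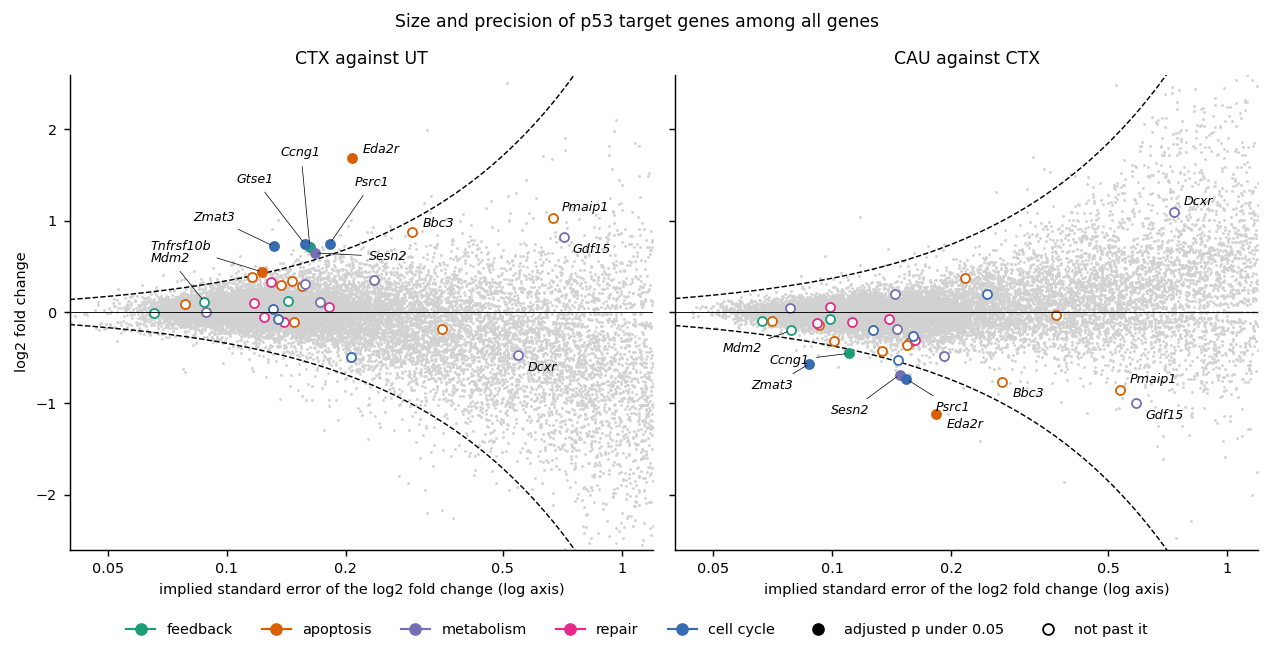
Log2 fold change (y axis) against its implied SE (x axis, log scale) for the p53 targets (coloured by role, filled where the adjusted p is under 0.05) and for all genes (grey) within the axis limits; dashed curves mark the change needed to pass the test. In CTX against UT, Mdm2 lies close to 0 with an SE of 0.09, whereas Pmaip1 and Gdf15 lie near Bbc3 in size but at SEs of 0.67 and 0.71.

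The comparison of CAU with UT asked which genes differed between ovaries of the caulerpin group and untreated ovaries. None of the 33 members passed by the authors' DESeq2 test, and 1 (Eda2r) had an unadjusted p under 0.05, where 3.46% of all 19302 genes did, 1.2% higher and 2.26% lower. Few genes of any kind passed, 0.0518% of those tested (0.0311% higher and 0.0207% lower), so a count of 0 is near that background. The median was 0.02 over the members and -0.01 over all genes, and 18 of 33 were positive (54.5%, against 47.8% of all genes).

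Eda2r was 1.49-fold higher in CAU than in UT, at 0.58 (SE 0.24, p = 0.0168, adjusted p = 1 after rounding, by DESeq2) per the authors' deposited table, with a 95% interval from 0.10 to 1.05. Ccng1 was at 0.27 (SE 0.16), Gtse1 at 0.22 (SE 0.19) and Zmat3 at 0.16 (SE 0.15) per the authors' deposited table. Psrc1 was at 0.02 (SE 0.20), Tnfrsf10b at 0.02 (SE 0.15) and Sesn2 at -0.03 (SE 0.21) per the authors' deposited table. Mdm2 was at -0.08 (SE 0.09) and Trp53 at 0.05 (SE 0.16) per the authors' deposited table.

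The intervals of 17 members lay between -0.5 and 0.5 in this comparison, among them Sesn2, Psrc1, Tnfrsf10b and Zmat3, while that of Eda2r did not. The largest negative values among members were those of Plk3 at -0.29 (SE 0.28), Plk2 at -0.27 (SE 0.15) and Btg2 at -0.22 (SE 0.19) per the authors' deposited table. Plk2 and Btg2 were negative in CAU against CTX too, at -0.20 (SE 0.13) and -0.26 (SE 0.16) per the authors' deposited table, and none of these values passed. The role medians were between -0.10 (cell cycle) and 0.06 (metabolism). No marker of the 6 cell lists passed, where 0.0518% of all genes did. Medians were 0.16 for dividing cells, 0.27 for granulosa cells and -0.50 for macrophages. The part of these cells in the member values was not tested.

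The 33 members were set beside other genes of the pathway. Of 15 genes for damage sensors and kinases upstream of p53, 1 rose in CTX against UT, where 0.472% of all genes were called higher. This was Mdc1, a scaffold at broken DNA, at 0.33 (SE 0.09, adjusted p = 0.019) per the authors' deposited table. Of the 15, 13 were positive with a median of 0.14, while 44.2% of all genes were positive. The damage kinase gene Atm was at 0.06 (SE 0.10) and Chek2, its target kinase, at 0.21 (SE 0.22) per the authors' deposited table. None of the 15 passed in the other comparisons, where 0.442% (CAU against CTX) and 0.0518% (CAU against UT) of all genes were called. Of 15 measured genes of the p53 family and its other regulators, none passed in any comparison by the authors' DESeq2 test. Their medians were -0.05, -0.02 and -0.05 in CTX against UT, CAU against CTX and CAU against UT. Over all genes, 1.29%, 0.442% and 0.0518% were called in these comparisons. None of the 15 had an unadjusted p under 0.05, where 10.2%, 5.36% and 3.46% of all genes did. Trp63, the family member of oocytes, was at -0.29 (SE 0.33) in CTX against UT per the authors' deposited table.

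In CTX against UT, 0.472% of all genes were called higher and 0.82% lower. Of 34 further measured p53 targets, 4 rose there and none fell (median 0.16). Among these were Cdkn1a, which encodes the kinase inhibitor p21, at 1.99 (SE 0.32, adjusted p = 9.15e-07), Ckap2 at 0.73 (SE 0.18, adjusted p = 0.00861) and Pidd1 at 0.87 (SE 0.23, adjusted p = 0.0198) per the authors' deposited table. Ckap2 encodes a spindle protein of dividing cells and Pidd1 a death-domain scaffold that activates caspase 2. In CAU against CTX, 1 of the 34 rose and 2 fell, where 0.312% of all genes were called higher and 0.13% lower. Cdkn1a at -1.41 (SE 0.24, adjusted p = 6.35e-06) and Ckap2 at -0.56 (SE 0.15, adjusted p = 0.0302) fell per the authors' deposited table. Rprm, a cell cycle arrest gene, rose at 3.27 (SE 0.87, adjusted p = 0.0441) per the authors' deposited table.

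**Figure D4:**
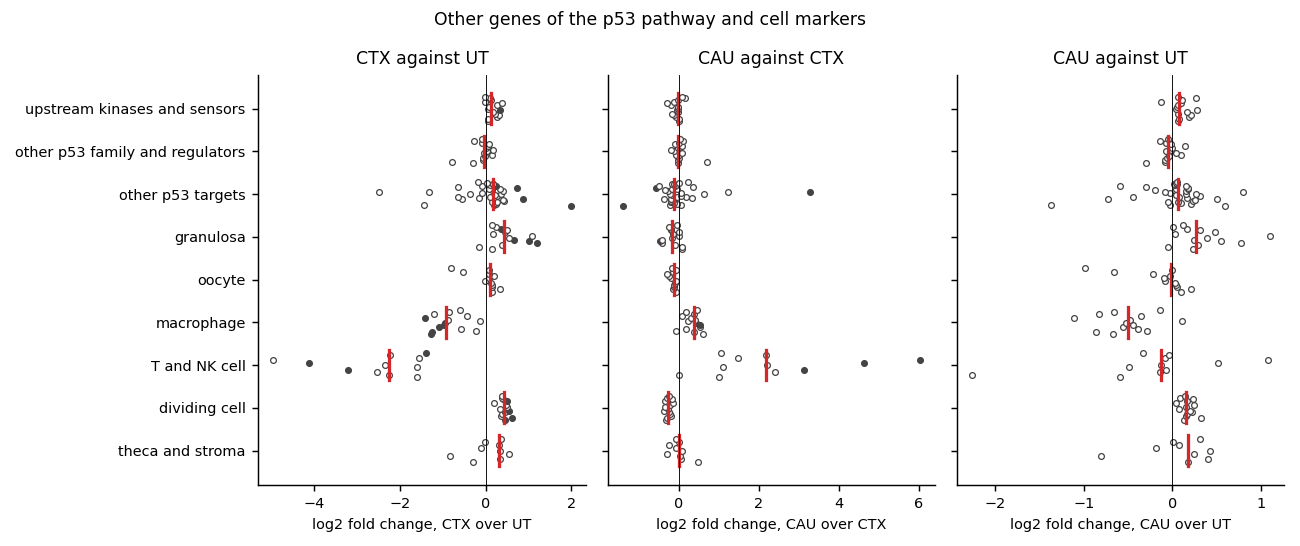
Log2 fold change (x axis, scaled separately in each panel) of the genes of 3 further p53 pathway lists and 6 cell marker lists (rows); points are genes, filled where the adjusted p is under 0.05, and red bars are list medians. In CTX against UT the 14 markers of dividing cells are all right of 0 and the 14 macrophage markers all left of 0.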

How the data were processed

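RNA-seq of ovarian tissue from 9 libraries in 3 groups of 3 (CTX, CAU, UT, taken from the labels) was used as the authors' deposited table of comparisons. The tools in the submitters' processing notes are DESeq2 1.44.0, RSEM 1.3.1, Bowtie2 and HISAT2, with the build GRCm38.p6 and no roles given. The columns of the table, per the file headers, are log2 fold changes with the p-value and q-value of DESeq2, all made by the authors. The q-value is called adjusted p here. It was within 7.74e-05 of a Benjamini-Hochberg adjustment of the deposited p-value over all genes with values. Between 215 and 272 genes of 19517 were blank in a comparison, none of them a member. The sources used here do not state filters, covariates or strand setting, and depth per library is unknown, so no counting interval is given.

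To obtain the SE, the size of the log2 fold change was divided by the size of the z matching its p-value (2-sided), on the assumption of a Wald test without shrinkage. The 3 log2 columns added up within 0.01 of a constant for all 33 members, so they share 1 direction convention. Fold is 2 to the power of the log2 fold change. The table holds no counts, so the authors' DESeq2 values stand in for a count test, and no test was refitted.

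The members and lists were chosen with earlier results of these data known. Every member is named, and full values are given for those called in any comparison and for Trp53 and Mdm2. Of each further pathway list, called genes are named, up to 4 a comparison, except that some single-gene results are not reported here, and Atm, Chek2 and Trp63, the marker Inhbb and the genes of the closing section were added after their values were seen. The whole windows of Ccng1 and Gtse1 follow that rule, and those of the other members were added later. Lists are described by counts and medians, with no list test. Gene positions were matched to RefSeq (GRCm38.p6) by gene ID and promoter windows by symbol. Motifs were searched on both strands of each window, a gene counting once. Exon overlap was read from GENCODE M21.

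The procedure was tested on simulated data. Software was matplotlib 3.10.9, scipy 1.17.1, pandas 2.3.3 and numpy 2.4.6 under Python 3.11.15.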

Additional observations from a re-analysis of the deposited data

How the results depend on the processing

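The count of members called higher in CTX against UT was between 5 and 8 under 7 alternatives (adjusted p under 0.10 or 0.01, at least 1.5-fold, adjustment recomputed, SE at most 1, median of all genes set to 0, z scaled to a spread of 1), and none was called lower. In CAU against CTX the count was 5, with 6 at an adjusted p under 0.10 (Gtse1 added), 4 at one under 0.01 (without Ccng1) and 3 with a 1.5-fold minimum, which leaves out Zmat3 and Ccng1 by size. With z scaled to a spread of 1 it was 8, adding Tnfrsf10b, Aen and Gtse1, because the z values of that comparison had a robust spread of 0.841 before scaling. In CAU against UT the count was 0 under all 7, and there that spread was 0.711. With z from the DESeq2 p-values so scaled, Eda2r lay just outside the threshold there, at an adjusted p of 0.0532. At an unadjusted p under 0.05, an alternative added after seeing the data, the counts were 14 (13 higher, 1 lower), 13 (all lower) and 1. Of 108 recomputed results for 9 genes, 2 passed where they had not (Gtse1 and Tnfrsf10b in CAU against CTX, with z scaled). Of the settings used for single genes, only centring alters a log2 fold change, and only by a small constant. That no sign turned was thus nearly fixed in advance. After centring all genes at 0, calls over all genes in CTX against UT were 156 higher and 134 lower, against 91 and 158. With z scaled, calls over all genes were 237 in CAU against CTX and 255 in CAU against UT, against 85 and 10. The SE limit left out no member and centring shifts all genes by 1 constant, so neither could test the medians of the members. Their mean weighted by precision was 0.20 in CTX against UT, where the median was 0.29. It was -0.21 in CAU against CTX (median -0.20) and 0.003 in CAU against UT (median 0.02).

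No paired analysis was possible because the comparison columns carry no replicate numbers, and leaving out single replicates was not run for the same reason. An SE above 0.5 limits what can be said of Pmaip1, Gdf15 and Dcxr.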

Other observations

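Several genes that other studies list as p53 targets had negative values in CTX against UT, none of them past the test. These were named after their values were seen. Dram1, a lysosomal membrane protein gene of autophagy, was at -1.43 (SE 0.57, adjusted p = 0.259) in CTX against UT and at -1.37 (SE 0.58, adjusted p = 1) in CAU against UT per the authors' deposited table. The tetraspanin gene Cd82 was at -0.65 (SE 0.31, adjusted p = 0.428) and the inflammatory caspase gene Casp1 at -0.64 (SE 0.40, adjusted p = 0.661) in CTX against UT per the authors' deposited table. Rprm was at -2.48 (SE 1.22, adjusted p = 0.461) in CTX against UT per the authors' deposited table.

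Pidd1 was positive in both comparisons with UT, at 0.87 (SE 0.23) in CTX and at 0.50 (SE 0.23, adjusted p = 1) in CAU per the authors' deposited table, of which the CTX value passed. In CAU against CTX it was at -0.38 (SE 0.14, adjusted p = 0.419) per the authors' deposited table, short of the threshold.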
